A study of Sus scrofa with 102 samples.

Results

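Expression of 51 genes of the ubiquitin and proteasome system was measured in the *Longissimus dorsi*, the long back muscle, of 102 pigs with porcine expression arrays. The genes were chosen by a rule on symbols, which was set with earlier results of these data known. The rule took proteasome subunits (PSMA to PSMG), ubiquitin-activating and ubiquitin-conjugating enzymes (UBA, UBE), ligase families (UBR, RNF, TRIM, the F-box families, cullins, KLHL and ASB) and deubiquitinases (USP, OTUD). *TRIM55*, *USP9X* and *USP9Y* were left out. They were covered by 61 probes, of which the brightest per gene was used, among 2201 genes with a symbol and 5449 probes in all. The probe set had been restricted by the authors to probes that vary between pigs, so these are the variable members of the system: 4 subunits of the 20S core, 4 of the 19S cap, 1 proteasome activator, 1 inhibitor, 10 conjugating enzymes, 21 ligases or their substrate receptors and 10 deubiquitinases. The activating enzyme, cullin, KLHL, OTUD and UBR families had 0 members among the probes analysed.

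Ubiquitin is a small protein that is attached to other proteins by a chain of enzymes: an activating enzyme, a conjugating enzyme and a ligase, which chooses the substrate. Chains of ubiquitin send most marked proteins to the proteasome, a barrel of proteolytic subunits (the 20S core) closed by a cap (the 19S particle) that binds the chain and unfolds the substrate, and deubiquitinases remove the mark. In skeletal muscle this system carries out most breakdown of contractile proteins during wasting and fasting, when the muscle ligases encoded by *FBXO32* and *TRIM63* rise. Of these, *FBXO32* was measured and *TRIM63* was not analysed here.

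All pigs came from a backcross in which F1 boars, sons of Iberian boars and Landrace sows, had been mated to Landrace sows. They were fed ad libitum and slaughtered at 171 to 184 days of age, and 1 array was hybridized per pig. There were 55 females and 47 males in 3 slaughter batches, with 8 females and 6 males in batch 1, 36 and 34 in batch 2 and 11 and 7 in batch 3. Batch 1 was younger (175.1 days ± 3.4 SD, against 180.7 ± 1.7 and 180.6 ± 0.78), and carcass weight averaged 65.9, 73.3 and 64.6 kg in batches 1 to 3. There was no untreated or purebred group. The sources used here do not say whether the males were castrated or in which order the samples were extracted and hybridized.

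The muscle label was borne out by the slow fibre markers, 6 of 8 measured with a mean of 10.5 on the log2 scale, and by the fast fibre calcium pump gene *ATP2A1* at 13.2, which was the 1 measured of 10 fast fibre markers. Lymphocyte and red blood cell markers had 0 genes measured. On 4 arrays, 3 labelled female and 1 labelled male, sex-specific probes went against the label or showed both sexes. These arrays were kept under their labels, and counts without them are given beside the results. All values below are log2 expression after GCRMA, so a difference of 1 is a doubling, and array data do not tell fewer cells of a type from less RNA per cell.

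Most of the system was lower in the pigs of batches 1 and 3 than in those of batch 2. In limma with sex and carcass weight in the model, 48 of the 51 genes (94.1%) differed between batches at a Benjamini-Hochberg adjusted p under 0.05, against 86.6% of all probes. In batch 1, 38 genes (74.5%) were lower than in batch 2 and 9 (17.6%) higher, against 41.5% and 32.7% of all probes. In batch 3, 35 (68.6%) were lower and 9 higher, against 45.3% and 36.2%. By the brightest probe of each gene, the same direction in both held for 34 genes that were lower (66.7%, against 38.6% of probes) and 9 that were higher (17.6%, against 28.4%). The median difference from batch 2 was -0.73 in batch 1 and -0.64 in batch 3, and over all probes it was -0.11 and -0.17. After quantile normalization the medians of all probes became 0.01 and -0.01, and the 51 genes lay 0.63 and 0.49 below batch 2. Their median relative to that of all probes was -0.62 and -0.46 before and -0.64 and -0.48 after, and 0 called genes changed direction. After it 32 of the 34 genes were still lower in both batches, without the core subunit genes *PSMA7* and *PSMB3*, and all 9 were still higher. *PSMB3* was also lost from the 34 with age in the model and with array weights.

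**Figure D1:**
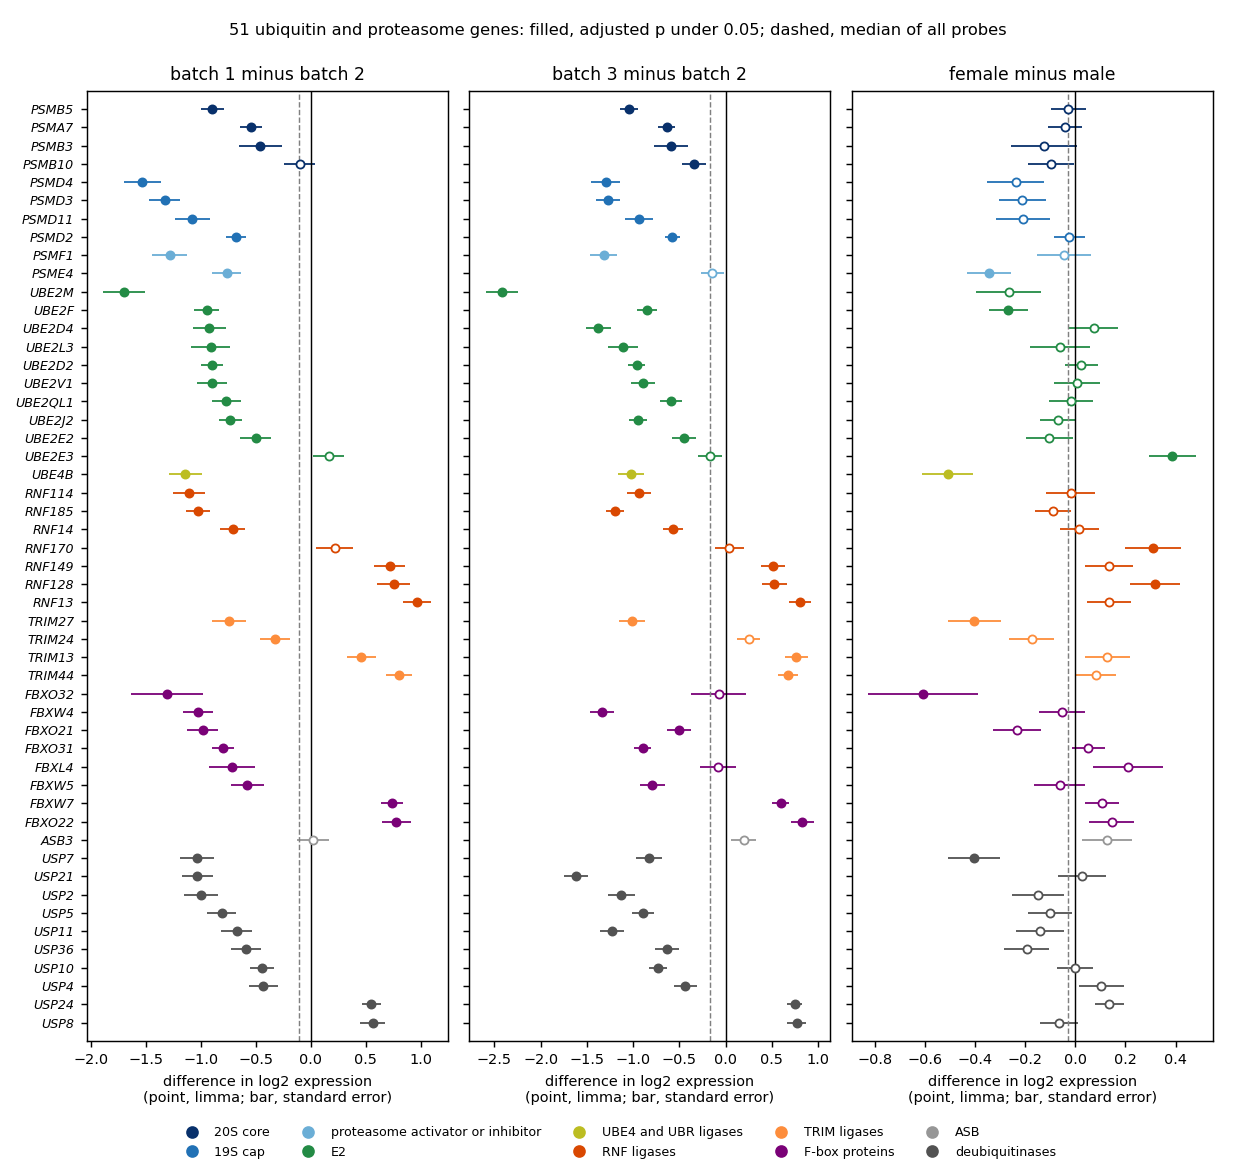
Differences in log2 expression of the 51 genes between slaughter batches 1 and 2, batches 3 and 2, and females and males (limma estimate with standard error; colours give the role, filled points an adjusted p under 0.05, the dashed line the median of all 5449 probes). The proteasome subunits lie left of 0 in both batch panels, the largest difference is that of *UBE2M*, and the F-box, RNF, TRIM and deubiquitinase groups hold genes on both sides.

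All 8 subunits of the 20S core and 19S cap differed between batches, as did 86.6% of all probes. *PSMB5*, the chymotrypsin-like catalytic subunit of the core, ranged from 8.91 to 10.57 with a median of 9.62 in batch 1, from 10.08 to 11.45 with a median of 10.69 in batch 2, and from 9.03 to 10.36 with a median of 9.55 in batch 3. All 32 pigs of batches 1 and 3 were below the batch 2 median, and 9 of 14 and 16 of 18 were below the lowest pig of batch 2. The difference was -0.90 ± 0.10 (SE) in batch 1 and -1.05 ± 0.10 in batch 3, a fold of 1.86 and 2.06 (adjusted p of the batch test, limma, 7.58e-20). *PSMA7*, a subunit of the outer ring, was the brightest subunit, with medians of 11.77, 12.56 and 11.76 in batches 1 to 3 and differences of -0.54 and -0.64. *PSMB3*, a structural subunit of the inner ring, differed by -0.46 ± 0.20 and -0.59 ± 0.18. *PSMB10*, the catalytic subunit that replaces a constitutive one in the immunoproteasome, had the smallest differences of the core. It was 0.34 ± 0.13 lower in batch 3 (adjusted p of the contrast, limma, 0.0122) and differed by -0.10 ± 0.14 in batch 1, which did not pass.

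The 19S cap had larger differences than the core in point estimate, with a median of -1.20 and -1.10 over its 4 subunits against -0.50 and -0.61 over the 4 of the core. *PSMD4*, a receptor for ubiquitin chains, ranged from 7.36 to 9.03 with a median of 8.37 in batch 1, from 7.74 to 11.01 with a median of 9.99 in batch 2, and from 7.82 to 10.27 with a median of 8.43 in batch 3. The groups overlapped at the low end of batch 2, but 0 of 14 and 1 of 18 pigs exceeded the batch 2 median, and the differences were -1.53 ± 0.17 and -1.30 ± 0.16 (adjusted p, limma, 3.93e-17). *PSMD3*, a subunit of the lid of the cap, had medians of 7.93, 9.51 and 8.06 within ranges of 7.37 to 9.44, 8.07 to 10.36 and 7.52 to 9.02. No pig of batches 1 and 3 reached the batch 2 median, and the differences were -1.33 ± 0.14 and -1.27 ± 0.13 (adjusted p, limma, 3.98e-19). *PSMD11*, a further lid subunit, differed by -1.08 ± 0.16 and -0.94 ± 0.15, and *PSMD2*, a scaffold subunit of the base, by -0.68 ± 0.09 and -0.58 ± 0.08.

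The proteasome inhibitor and the activator differed in their pattern over batches. *PSMF1*, which encodes the inhibitor PI31, followed the subunits: its medians were 5.96, 7.31 and 6.12, with ranges of 5.24 to 6.92, 6.45 to 8.09 and 3.64 to 7.07. Of the pigs in batches 1 and 3, 10 of 14 and 13 of 18 lay below the lowest of batch 2, and the differences were -1.28 ± 0.16 and -1.32 ± 0.15 (adjusted p, limma, 1.52e-16). *PSME4*, which encodes the activator PA200, was 0.77 ± 0.13 lower in batch 1 than in batch 2, with medians of 9.76 and 10.64, whereas its batch 3 median of 10.37 gave a difference of -0.14 ± 0.12 that did not pass. The contrast between batches 1 and 3 was tested directly and gave -0.62 ± 0.15 (adjusted p, limma, 0.00263).

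Among the 10 conjugating enzymes, 9 were lower in both batches by the brightest probe, against 38.6% of all probes. *UBE2M*, which transfers the ubiquitin-like protein NEDD8 to cullins and so activates cullin ligases, had the largest batch difference of the 51 genes. It ranged from 5.56 to 8.64 with a median of 6.48 in batch 1, from 6.33 to 9.42 with a median of 8.38 in batch 2, and from 4.77 to 7.34 with a median of 5.96 in batch 3. Only 1 of the 32 pigs of batches 1 and 3 was above the batch 2 median. The differences were -1.70 ± 0.19 and -2.42 ± 0.18, a fold of 3.24 and 5.34 (adjusted p, limma, 7.32e-24). *UBE2F*, the other NEDD8-conjugating enzyme, differed by -0.95 ± 0.12 and -0.85 ± 0.11. The general-purpose enzymes *UBE2D2* and *UBE2D4* were also lower. *UBE2D2* had medians of 10.36, 11.34 and 10.30 within ranges of 9.62 to 11.26, 10.41 to 11.74 and 9.77 to 10.84, and all pigs of batches 1 and 3 were below the batch 2 median (-0.90 ± 0.10 and -0.96 ± 0.09, adjusted p, limma, 1.05e-19). *UBE2D4* had medians of 9.29, 10.17 and 8.74 within ranges of 7.62 to 10.02, 8.35 to 10.95 and 7.85 to 9.63 (-0.92 ± 0.15 and -1.38 ± 0.14, adjusted p, limma, 8.90e-17), and its other 2 probes were also lower. *UBE2J2*, a membrane-anchored enzyme of degradation at the endoplasmic reticulum, had medians of 7.70, 8.49 and 7.47 within ranges of 6.76 to 8.47, 7.35 to 9.00 and 6.87 to 8.30 (-0.73 ± 0.11 and -0.95 ± 0.10, adjusted p, limma, 2.82e-16). *UBE2L3*, *UBE2QL1*, *UBE2E2* and *UBE2V1* differed by between -0.50 and -0.91 in batch 1 and between -0.45 and -1.11 in batch 3, but a dimmer probe of *UBE2V1* went the other way.

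**Figure D2:**
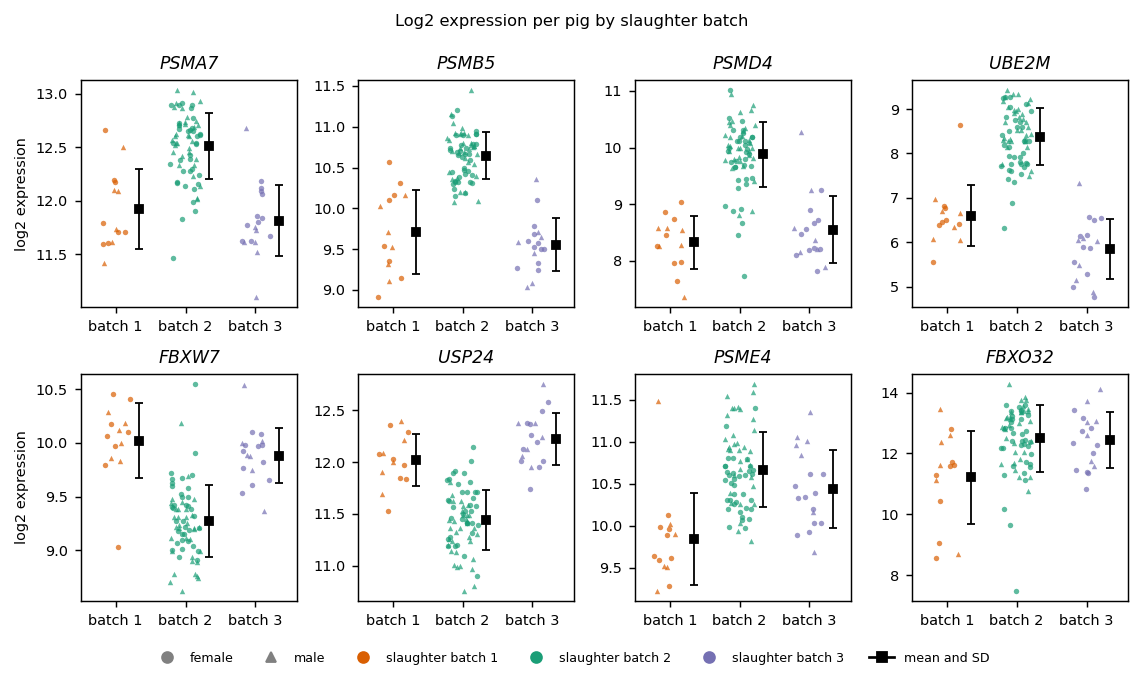
Log2 expression per pig by slaughter batch for 8 genes (circles, females; triangles, males; black square and bar, mean and SD of 14, 70 and 18 pigs). *PSMA7*, *PSMB5*, *PSMD4* and *UBE2M* lie lower in batches 1 and 3 than in batch 2, *USP24* and the brighter probe of *FBXW7* higher, and *PSME4* and *FBXO32* are lower in batch 1 than in the other batches.

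The ligases were split. *UBE4B*, a ligase that extends existing chains, was lower in both batches (-1.14 ± 0.15 and -1.02 ± 0.14). Of the 7 RING finger genes, *RNF114*, *RNF14* and *RNF185* were lower in both batches. By the brightest probe, *RNF13*, *RNF128* and *RNF149*, all membrane ligases with a protease-associated domain, were higher in both. The dimmer probe of *RNF149* did not differ between batches, and that of *RNF128* was higher in batch 1 only. *RNF185*, a ligase of the endoplasmic reticulum membrane, had medians of 6.51, 7.66 and 6.33 within ranges of 6.16 to 7.56, 6.48 to 8.34 and 5.90 to 7.04 (-1.03 ± 0.11 and -1.20 ± 0.10, adjusted p, limma, 2.17e-22). *RNF13*, the RING gene with the largest difference upwards, ranged from 7.92 to 10.02 with a median of 9.39 in batch 1, from 7.15 to 8.97 with a median of 8.21 in batch 2, and from 8.11 to 9.70 with a median of 9.17 in batch 3. Above the batch 2 median were 13 of 14 and 16 of 18 pigs, and the differences were 0.96 ± 0.13 and 0.80 ± 0.12 (adjusted p, limma, 5.19e-13). Of the 4 TRIM genes, *TRIM44* (0.80 and 0.67) and *TRIM13* (0.46 and 0.76) were higher in both batches and *TRIM27* (-0.75 and -1.01) lower in both. *TRIM24*, a nuclear coregulator, was lower in batch 1 (-0.33 ± 0.13), its batch 3 difference of 0.25 ± 0.12 did not pass, and its batch 1 against batch 3 difference of -0.58 ± 0.16 passed (adjusted p, limma, 0.00676).

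F-box proteins are the substrate receptors of one class of cullin ligases. All 8 measured differed between batches, as did 86.6% of all probes. *FBXW4* had medians of 5.48, 6.72 and 5.23 within ranges of 5.02 to 7.22, 5.89 to 7.53 and 4.47 to 6.36 (-1.03 ± 0.14 and -1.34 ± 0.13, adjusted p, limma, 2.21e-18). Of the pigs of batch 3, 16 of 18 were below the lowest pig of batch 2. *FBXO31*, a receptor for cyclin D1, had medians of 9.14, 9.90 and 8.81 within ranges of 8.53 to 9.53, 8.95 to 10.53 and 8.47 to 9.76 (-0.80 ± 0.10 and -0.90 ± 0.09, adjusted p, limma, 4.70e-18). The opposite direction was seen for the brighter probe of *FBXW7*, a receptor for cyclin E and MYC, which ranged from 9.02 to 10.46 with a median of 10.09 in batch 1, from 8.62 to 10.55 with a median of 9.25 in batch 2, and from 9.37 to 10.55 with a median of 9.91 in batch 3. The differences were 0.74 ± 0.10 and 0.59 ± 0.09 (adjusted p, limma, 3.14e-12). Its dimmer probe was lower in batch 3 (-0.37, adjusted p 0.00571) and did not pass in batch 1 (0.15, adjusted p 0.327), so the direction of *FBXW7* depends on the probe. *FBXO22* was higher by 0.78 ± 0.13 and 0.83 ± 0.12. *FBXW5*, the dimmest gene of the 51 with a mean of 2.48, differed by -0.58 and -0.79. *FBXL4*, a mitochondrial F-box protein, was 0.72 ± 0.21 lower in batch 1 and differed by -0.09 ± 0.19 in batch 3, which did not pass.

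*FBXO32*, which encodes the muscle atrophy ligase atrogin-1, was among the brightest 1% of probes. As with *PSME4*, *FBXL4* and *TRIM24*, it was lower in batch 1 than in batch 2, and its batch 3 difference did not pass. It ranged from 8.55 to 13.47 with a median of 11.59 in batch 1, from 7.49 to 14.28 with a median of 12.76 in batch 2, and from 10.83 to 14.13 with a median of 12.47 in batch 3. Its SD over all pigs was 1.20. Batch 1 was 1.31 ± 0.33 below batch 2 (adjusted p of the contrast, limma, 0.000218) and 1.23 ± 0.38 below batch 3 (0.0177), while batch 3 differed from batch 2 by -0.08 ± 0.30 (0.815). A dimmer probe gave -0.62 in batch 3, which did not pass either (adjusted p, limma, 0.0908). With age in the model the batch 1 difference of the brighter probe was -1.07 and the batch test no longer passed (adjusted p, limma, 0.0744). Batch 1 was the younger batch, so age and batch cannot be fully told apart here. *FBXO21*, a further F-box gene linked to muscle wasting, had medians of 5.70, 6.33 and 5.96 within ranges of 3.52 to 6.24, 5.61 to 7.59 and 4.47 to 6.60, and was lowest in batch 1 (-0.98 ± 0.14 and -0.51 ± 0.13 against batch 2, and -0.48 ± 0.17 against batch 3, adjusted p, limma, 0.0347).

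Of the 10 deubiquitinases, 8 were lower and 2 higher in both batches, against 38.6% and 28.4% of all probes. *USP21*, which acts on histone H2A, had medians of 6.25, 7.57 and 5.84 within ranges of 6.01 to 7.68, 6.25 to 8.18 and 4.42 to 7.05. In batch 3, 15 of 18 pigs were below the lowest pig of batch 2, and the differences were -1.03 ± 0.14 and -1.62 ± 0.13 (adjusted p, limma, 8.13e-21). *USP5*, which takes apart free ubiquitin chains, differed by -0.81 ± 0.13 and -0.89 ± 0.12, and *USP2*, the brightest of those that were lower, by -1.0 ± 0.15 and -1.13 ± 0.14. *USP7*, *USP11*, *USP10*, *USP36* and *USP4* differed by between -0.43 and -1.04 in batch 1 and between -0.43 and -1.23 in batch 3. *USP24* ranged from 11.52 to 12.40 with a median of 12.02 in batch 1, from 10.76 to 12.15 with a median of 11.44 in batch 2, and from 11.74 to 12.75 with a median of 12.22 in batch 3. All 32 pigs of batches 1 and 3 were above the batch 2 median (0.55 ± 0.09 and 0.75 ± 0.08, adjusted p, limma, 3.67e-15). *USP8*, which acts on receptors at endosomes, was higher by 0.56 ± 0.11 and 0.77 ± 0.10.

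Batches 1 and 3 differed little from each other in these genes. *PSME4*, *FBXO32*, *FBXO21* and *TRIM24* were lower in batch 1 than in batch 3 (7.84% of the genes, against 8.59% of probes), and *UBE2M*, *USP21* and *USP11* were higher (5.88%, against 8.18%). With age in the model these counts were 1 and 0, and those over all probes also fell, from 468 and 446 to 135 and 108. By the brightest probe of each gene, the 3 genes that did not differ between batches were *RNF170*, *ASB3* and *UBE2E3*. The dimmer probes of *UBE2E3* were lower in batches 1 and 3 than in batch 2.

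Other measures moved with the batches. The 5′ minus middle difference of the actin control probes, which falls as RNA degrades, was -1.28 ± 0.30 (SD) in batch 1, -0.80 ± 0.29 in batch 2 and -1.32 ± 0.43 in batch 3. With this difference in the model, 48 of the 51 genes passed for batch (94.1%, against 76.9% of probes), and the median differences from batch 2 were -0.59 and -0.56. Of the 34 genes that were lower in both batches 33 remained so, without *FBXW5*, and of the 9 that were higher 8 remained, without *RNF149*. The difference itself had a positive slope in 22 genes (43.1%, against 27.6% of probes), so that pigs with less 5′ loss had more signal, and a negative slope in 6 (11.8%, against 25.2%). The fast fibre gene *ATP2A1* ranged from 10.54 to 13.91 in batch 1, 11.24 to 14.99 in batch 2 and 10.73 to 13.08 in batch 3. Its differences from batch 2 were -1.37 and -1.42. The mean of the 6 slow fibre markers was 10.5, 10.5 and 10.4, but single markers moved in opposite directions. *ATP2A2* was higher in both batches (0.66 and 0.74) and *TNNC1* in batch 3 (0.50). *CASQ2*, with a dim probe (mean 3.39), was lower in batch 3 (-0.58), and the other slow fibre markers did not pass. The mean of the 4 fibroblast markers (of 6) was 8.17, 7.78 and 8.07, within ranges of 7.59 to 8.64, 6.97 to 9.01 and 7.10 to 8.68, that of 2 macrophage markers (of 5) 5.46, 4.84 and 4.82, that of 4 endothelial markers (of 5) 6.88, 6.83 and 6.46, and that of 2 adipocyte markers (of 5) 6.67, 6.74 and 6.99. The fibroblast, endothelial and adipocyte means also pool markers whose estimates had opposite signs. Of the fibroblast markers *COL3A1* (0.96 and 1.31) and *DCN* (0.38 and 0.32) were higher in both batches, and *LUM* (0.86) in batch 1. *COL1A2*, with a dim probe (mean 3.68), was lower in both (-0.61 and -0.70). Of the endothelial markers *PECAM1* was higher in batch 1 (0.40), and *VWF* (-0.78) and *CLDN5* (-0.65) were lower in batch 3. Both macrophage markers, *CD163* (0.79) and *AIF1* (0.42), were higher in batch 1. The adipocyte marker *FABP4* was higher in batch 3 (0.60), and *ADIPOQ* did not pass in either batch. The part of fibre type and of these cell types in the batch differences was not tested. Without the 4 arrays of doubtful sex, 47 genes passed for batch (4673 of all probes), and the same 34 and 9 were lower and higher in both batches.

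Sex differences were fewer and smaller than batch differences. With batch and carcass weight in the model, 9 of the 51 genes (17.6%) passed, against 26.1% of all probes. Of these, 6 were lower in females (11.8%, against 14.4% of probes) and 3 were higher (5.88%, against 11.7%). These shares were below those of the array, but the gap was not tested and depended on the settings. With array weights, 15 of the 51 genes and 1770 of all 5449 probes passed. Without the 4 arrays of doubtful sex 10 genes passed, and 1462 of all probes, against 1422 with them.

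The chain-extending ligase *UBE4B* had the smallest adjusted p for sex. It ranged from 6.60 to 8.89 with a median of 7.73 in females and from 6.87 to 10.56 with a median of 8.35 in males, and 8 of 55 females were above the male median. The difference was -0.51 ± 0.10, a fold of 1.42 (adjusted p, limma, 0.000102), and within batches 1 to 3 it was -0.20, -0.55 and -0.56. The proteasome activator gene *PSME4* ranged from 9.28 to 11.40 with a median of 10.33 in females and from 9.22 to 11.69 with a median of 10.90 in males. Although the ranges overlapped, 2 of 55 females exceeded the male median (-0.34 ± 0.09, adjusted p, limma, 0.00216), and the difference was -0.25, -0.35 and -0.47 within the batches.

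*USP7*, a deubiquitinase that acts on p53 and its ligase MDM2, ranged from 6.58 to 8.64 with a median of 7.46 in females and from 5.58 to 9.21 with a median of 8.00 in males (-0.40 ± 0.10, adjusted p, limma, 0.00214). Its sex difference was -0.59 within batch 2, 0.10 within batch 1 and -0.03 within batch 3. *TRIM27* ranged from 2.72 to 5.90 with a median of 4.33 in females and from 3.28 to 6.01 with a median of 4.73 in males (-0.40 ± 0.11, adjusted p, limma, 0.00274; -0.14, -0.46 and -0.31 within the batches). The NEDD8-conjugating *UBE2F* ranged from 5.98 to 7.87 with a median of 7.13 in females and from 5.97 to 8.36 with a median of 7.43 in males (-0.27 ± 0.08, adjusted p, limma, 0.00669). Within the batches its difference was 0.09, -0.38 and -0.16.

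*FBXO32* ranged from 7.49 to 13.60 with a median of 12.29 in females and from 8.69 to 14.28 with a median of 12.86 in males, and 13 of 55 females were above the male median. Its difference was -0.61 ± 0.22, a fold of 1.52 (adjusted p, limma, 0.0315), with -0.50, -0.53 and -0.59 within the batches. The call did not hold after quantile normalization (-0.46, adjusted p 0.100) or in batch 2 alone (-0.53, adjusted p 0.104). *FBXO21* ranged from 3.52 to 7.14 with a median of 6.11 in females and from 4.47 to 7.59 with a median of 6.29 in males, and its difference of -0.23 ± 0.09 did not pass (adjusted p, limma, 0.0584).

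The 3 genes higher in females were a conjugating enzyme and a pair of membrane ligases. *UBE2E3* ranged from 10.97 to 12.70 with a median of 12.05 in females and from 10.27 to 12.86 with a median of 11.57 in males. Above the male median were 45 of 55 females (0.39 ± 0.09, adjusted p, limma, 0.00135), and the differences within the batches were 0.30, 0.40 and 0.34. *RNF128*, a ligase known from T cell anergy, ranged from 7.89 to 10.16 with a median of 9.22 in females and from 7.01 to 10.18 with a median of 8.81 in males (0.32 ± 0.10, adjusted p, limma, 0.0131; 0.04, 0.39 and 0.10 within the batches). *RNF170*, a ligase for inositol trisphosphate receptors, ranged from 5.55 to 7.37 with a median of 6.50 in females and from 4.31 to 7.29 with a median of 6.11 in males (0.31 ± 0.11, adjusted p, limma, 0.0330; 0.18, 0.32 and 0.27 within the batches). In batch 2 alone the difference of *RNF170* did not pass (adjusted p 0.0629).

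**Figure D3:**
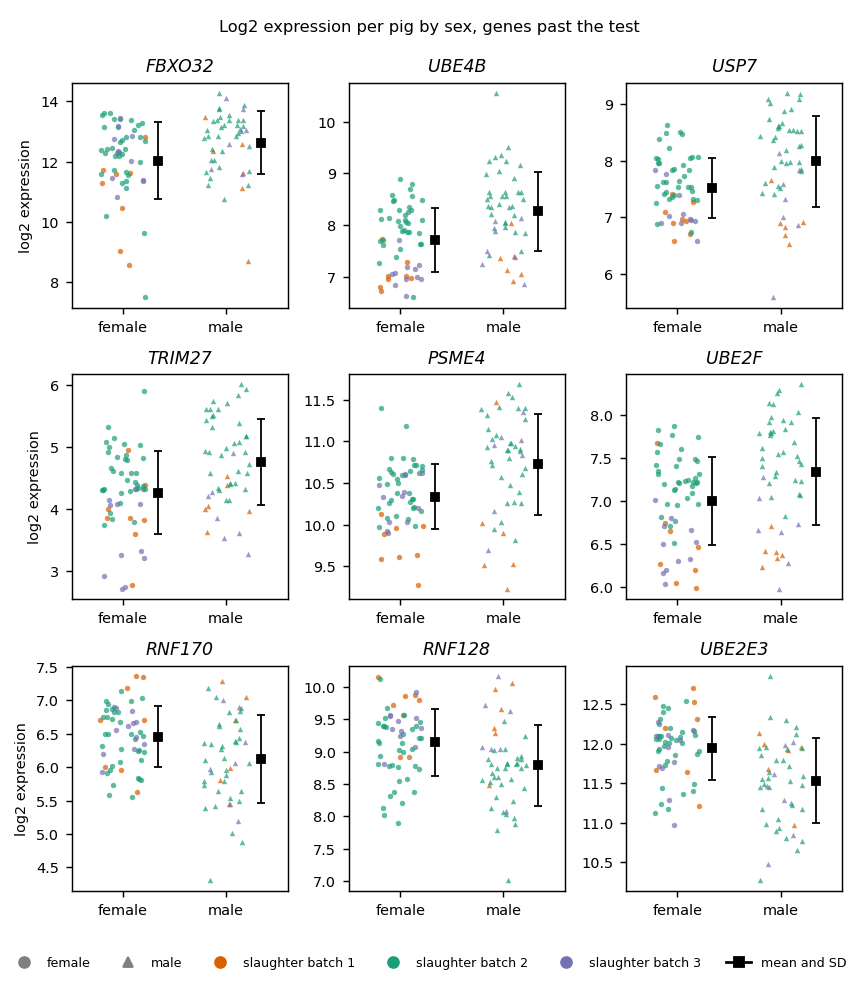
Log2 expression per pig in 55 females (circles) and 47 males (triangles) for the 9 genes that differed by sex, with slaughter batch in colour and the mean and SD in black. The ranges of the sexes overlap in every panel; *FBXO32*, *UBE4B*, *USP7*, *TRIM27*, *PSME4* and *UBE2F* are lower in females, and *RNF170*, *RNF128* and *UBE2E3* higher.

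Of the 8 subunits of the core and cap, 0 passed for sex in this model. Their differences ran from -0.24 ± 0.11 (*PSMD4*, adjusted p, limma, 0.108) to -0.02 ± 0.06 (*PSMD2*, adjusted p 0.811). All 8 had the lower estimate in females, against 54.7% of all probes. The actin difference was close between the sexes, at -0.97 in females and -0.94 in males. With it in the model 14 genes passed for sex (27.5%, against 31.7% of probes), among them the cap subunit genes *PSMD3* (-0.23, adjusted p, limma, 0.0403) and *PSMD11* (-0.24, adjusted p 0.0431). With array weights 3 subunits passed (*PSMD3*, *PSMD4* and *PSMD11*), and in batch 2 alone *PSMD3* did. Of all 5449 probes, 1770 and 1765 passed under these settings. Of the 2 adipocyte markers, *ADIPOQ*, with a dim probe (mean 2.95), was higher in females (0.65), and *FABP4* (mean 10.6) had an estimate of -0.23 that did not pass. Of the 4 fibroblast markers *DCN* was higher in females (0.27), and of the 4 endothelial markers *PECAM1* was lower (-0.29). The mean of the adipocyte markers ranged from 5.72 to 9.26 in females and 5.82 to 8.99 in males, that of the fibroblast markers from 6.97 to 9.01 and 7.08 to 8.67, and that of the endothelial markers from 5.89 to 7.47 and 5.92 to 8.64, and their part in the sex differences was not tested.

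The interaction of sex and batch passed for 0 of the 51 genes and 0% of all probes (interaction test, limma, lowest adjusted p of the genes 0.636). With 14 and 18 pigs in batches 1 and 3, this does not show that the sex differences were the same in every batch. At an unadjusted p under 0.05 there was 1 gene, *USP7*, against 7.80% of probes. The slope on carcass weight likewise passed for 0 genes and 0% of probes (lowest adjusted p, limma, 0.337). At an unadjusted p under 0.05 there were 8 genes (15.7%), against 10.8% of probes, and the largest slope was -0.15 ± 0.05 per 10 kg, of *ASB3*, a substrate receptor of cullin ligases.

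After sex, batch and carcass weight had been taken out, the 1275 pairs of the 51 genes had a median Pearson's r of 0.07 over 102 pigs, against 0.00 over all pairs of probes. Of them, 103 (8.08%) had an r above 0.5, against 3.92% of all probe pairs. These values share arrays and RNA quality, and are given as a description. The 28 pairs of core and cap subunits had a median r of 0.35, and 0.41 with the actin difference also taken out. The 4 cap subunits had 0.50 and the 4 core subunits 0.29. *PSMA7*, *PSMB5*, *PSMD2*, *PSMD3* and *PSMD11* each had a median r of 0.53 to 0.54 with the other subunits, whereas *PSMD4* had 0.20 and the immunoproteasome gene *PSMB10* 0.07. The conjugating enzymes had a median of 0.33 over 45 pairs. The RING finger, TRIM, F-box and deubiquitinase groups had medians of 0.01, -0.01, 0.03 and 0.06.

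**Figure D4:**
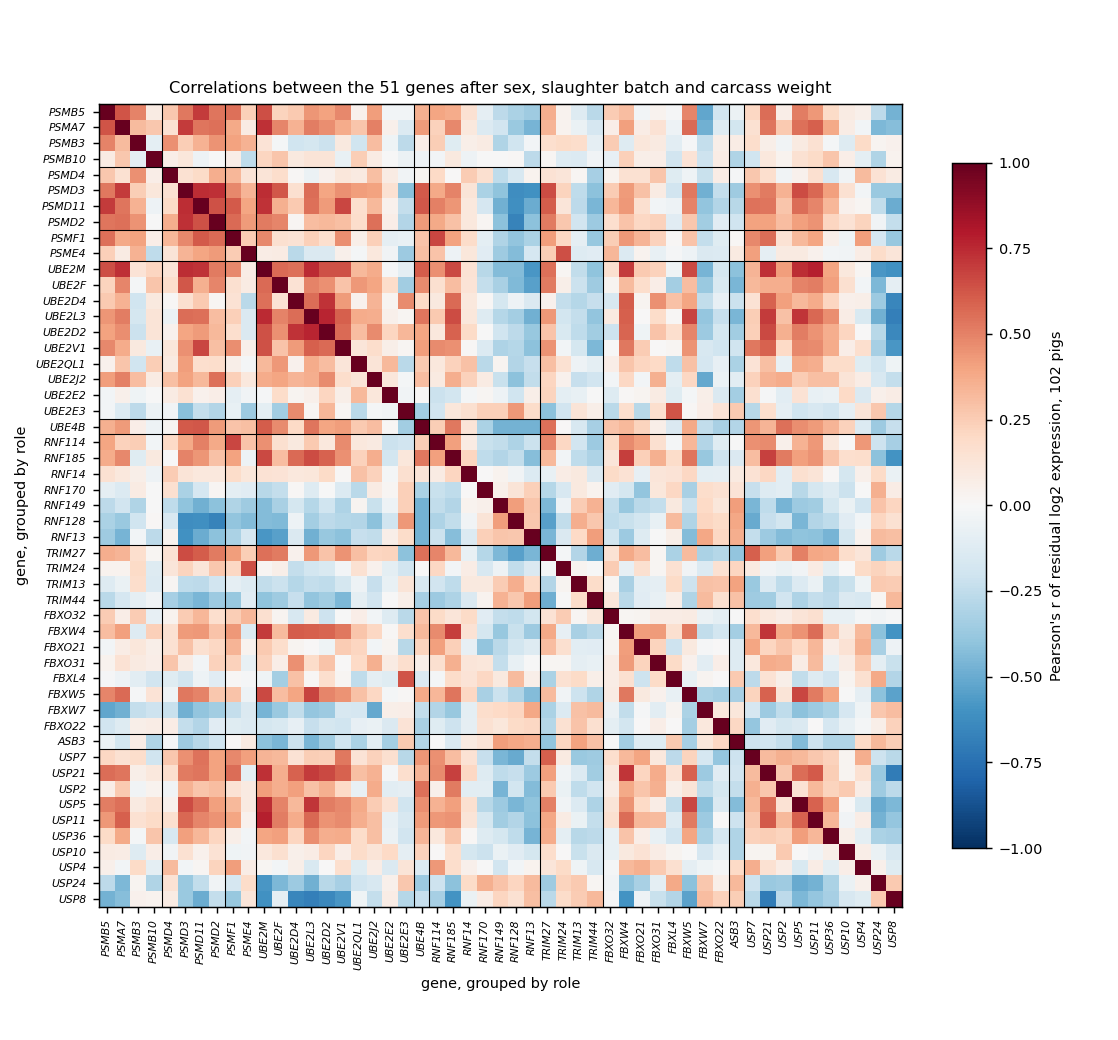
Pearson's r between the 51 genes over 102 pigs after sex, slaughter batch and carcass weight (red, positive; blue, negative; black lines separate the roles). Core and cap subunits are mostly red among themselves, with a median of 0.35, and mostly blue against *RNF13*, *RNF128*, *FBXW7* and *USP8*.

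The 4 highest correlations all involved conjugating enzymes. *UBE2M* and *USP11* had an r of 0.78 (Spearman's rho 0.76), with 0.73, 0.80 and 0.78 within batches 1 to 3. *UBE2D2* and *UBE2L3* had an r of 0.76 (rho 0.72; 0.88, 0.79 and 0.51 within the batches), *UBE2L3* and *UBE2M* 0.75 (rho 0.72; 0.49, 0.89 and 0.32), and *PSMD3* and *UBE2M* 0.74 (rho 0.69; 0.62, 0.79 and 0.70). Without the 2 pigs farthest from the median the 4 values were 0.76, 0.73, 0.71 and 0.67. The lowest was that of the deubiquitinases *USP21* and *USP8*, at -0.70 (rho -0.69; -0.73, -0.75 and -0.60 within the batches). These pairs were picked for their size from 1275, so no p is given. Against the 8 subunits, *UBE2M* had the highest median r (0.58), and *RNF13* (-0.38), *FBXW7* (-0.37), *RNF128* (-0.35) and *USP8* (-0.31) the lowest. By the brightest probe, the last 4 were also among the 9 genes that were higher in batches 1 and 3. The dimmer probes of *FBXW7* and *RNF128* were not higher in batch 3.

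*FBXO32* was set against the transcription factors and targets of the fasting and glucocorticoid response. Of 9 partners 7 were measured, and all 7 correlated positively with it over 102 pigs. For comparison, the median absolute r over all pairs of probes was 0.18. The permutation p sets each r against no relation, not against this background, so the lower values of r are near it. The highest r was with *KLF15*, a glucocorticoid-induced factor, at 0.39 (rho 0.46, adjusted permutation p 0.00035 over the family of 7). Next were *CEBPD* (0.37, rho 0.42, permutation p 0.00035) and *FOXO1*, a known activator of *FBXO32* (0.36, rho 0.40, permutation p 0.000677). *CEBPB* had 0.30, *KLF10* 0.27, *PDK4*, the kinase that spares glucose in fasting, 0.24 and *FOXO3* 0.21, with adjusted permutation p of 0.00439, 0.0104, 0.0212 and 0.0348. By Spearman's rho *FOXO3* did not pass (0.20, permutation p 0.0501). Without the 2 pigs farthest from the median the 7 values of r lay between 0.22 and 0.42, and all passed. Within batch 2 all 7 passed, with r from 0.24 to 0.48. In batches 1 and 3 the values ran from -0.29 (*KLF10*) to 0.33 and from 0.05 (*FOXO1*) to 0.32, and 6 and 7 of the 7 were positive. None passed there, but with 14 and 18 pigs correlations of the size seen in batch 2 could hardly have passed, so these batches are too small to test the relations.

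**Figure D5:**
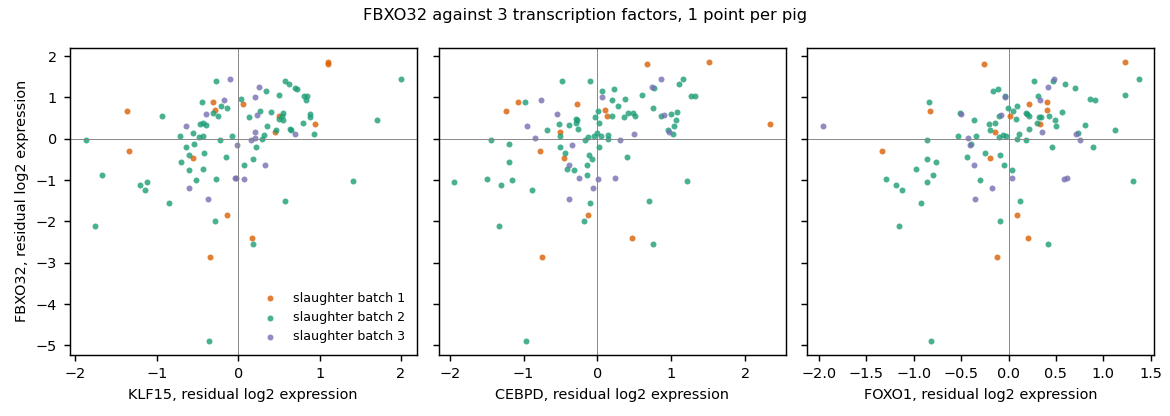
Residual log2 expression of *FBXO32* against *KLF15*, *CEBPD* and *FOXO1*, 1 point per pig, after sex, slaughter batch and carcass weight (colour, batch). The points rise from lower left to upper right with r of 0.39, 0.37 and 0.36 and a wide scatter.

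For 8 genes more than 1 probe was present, and they did not always give the same result. The brighter probe of *UBE2V1*, a conjugating enzyme variant without catalytic activity, averaged 7.00, 7.93 and 6.99 in batches 1 to 3, and the dimmer one 7.89, 6.85 and 8.15. Their batch differences were thus opposite (-0.90 and -0.89 against 1.03 and 1.29), and over pigs they correlated negatively (r = -0.45), so no direction can be given for this gene. The brightest probe of *UBE2E3* did not differ between batches, but its other 2 probes were lower by 0.80 and 0.83 in batch 1 and by 1.18 and 1.17 in batch 3, although all 3 correlated with r of 0.79 to 0.89 and all were higher in females. The probes of *FBXW7*, whose batch 3 differences passed in opposite directions, had an r of 0.22. The dimmer probe of *RNF149* did not differ between batches (adjusted p, limma, 0.536), and that of *RNF128* was higher in batch 1 (0.41) but not in batch 3 (0.00). For *FBXO32* the probes had an r of 0.98, and the dimmer one gave -1.85 and -0.62 by batch and -0.80 by sex. The brightest probes of *UBE2E3* and *RNF128* are of a kind that may match several transcripts. For *FBXO31* and *UBE2D4* all probes were lower in both batches.

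Of 132 further genes that the symbol rule does not reach, 28 were measured. For batch 26 passed (92.9%, against 86.6% of all probes), with 17 lower (60.7%, against 41.5%) and 6 higher (21.4%, against 32.7%) in batch 1 and 16 lower (57.1%, against 45.3%) and 8 higher (28.6%, against 36.2%) in batch 3. Their median differences were -0.67 and -0.68. Both measured subunits of the COP9 signalosome, which removes NEDD8 from cullins, were lower (*COPS3* -0.83 and -0.66, *COPS7A* -1.28 and -1.45), as were all 4 partners of cullin ligases. *STUB1*, a ligase that works with chaperones, was lower by 1.06 and 1.77, and *SQSTM1*, the receptor that carries ubiquitinated cargo to autophagy, by 0.81 and 0.70. *SENP6*, a protease of the ubiquitin-like protein SUMO, was higher by 1.5 and 1.98. For sex 9 passed (32.1%, against 26.1% of all probes), a share near that of the array. *DDB2*, a receptor for damaged DNA (0.71 ± 0.14, adjusted p, limma, 7.82e-05), *ANAPC5* (0.35), *CAND2*, which exchanges cullin receptors (0.34), the ubiquitin gene *RPS27A* (0.34) and *MYLIP* (0.28) were higher in females. *CYLD*, a deubiquitinase of inflammatory signalling (-0.48), *SQSTM1* (-0.30), *OTUB1* (-0.29) and *PELI1* (-0.23) were lower.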

How the data were processed

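Muscle RNA of 102 pigs had been hybridized to porcine expression arrays, 1 per pig. The authors normalized with GCRMA (version not given in the sources used here) and kept probes with more than 20% of values over 1.5-fold from the median. The deposited values are log2 intensities; 98.0% of probes met that filter when it was recomputed. As arrays carry no counts, precision is set by how many pigs were measured.

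Of 5493 probes, 44 controls were left out. Probes were named from the platform annotation: 2639 had 1 symbol, 49 several and 2761 none, and of the 51 genes 50 matched RefSeq by gene ID. All 5449 probes were fitted with limma (3.58.1 in R 4.3.3; lmFit and eBayes, two-sided) on sex, slaughter batch and carcass weight (per 10 kg), and p-values were adjusted by Benjamini-Hochberg over all of them with a threshold of 0.05. Female minus male and batch minus batch 2 are the directions given. The study's polygenic effect was left out for want of the pedigree, and kinship between pigs is therefore ignored in every p-value. Correlations were computed on residuals, with 100000 permutations (two-sided) for the 7 pairs of *FBXO32*. Other computations used scipy 1.17.1, pandas 2.3.3 and numpy 2.4.6 (Python 3.11.15), and figures matplotlib 3.10.9. The model was tested on simulated data.

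The members and lists were chosen with earlier results of these data known. Genes named in full were, for sex and weight, those past the threshold (up to 10 in each direction), for batch the 12 with the largest F, for correlations the 4 highest pairs and the lowest, and *FBXO32* and *FBXO21*; others were named after their values were seen. Alternatives were quantile normalization, the actin difference or age as a covariate, array weights, batch as a random block, batch 2 alone, leaving out 4 arrays of doubtful sex, dim probes (mean under 4) or 2 pigs, the probe with the largest variance, and Benjamini-Yekutieli at 0.20. Sequences and promoters were not analysed here.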

Additional observations from a re-analysis of the deposited data

How the results depend on the processing

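The count of genes that passed for sex, 9 as reported, was 14 with the actin difference in the model and 15 with array weights, and between 7 and 11 under the other settings. The count over all probes moved too: it was 1422 as reported, 1730 with the actin difference and 1770 with array weights. Under the other settings where all probes were counted it lay between 1001 and 1765. With array weights, 2 genes passed for carcass weight (126 of all probes), against 0 under every other setting. The batch count lay between 44 and 49, and that over all probes between 4192 and 4775. The interaction count was 0 with quantile normalization and with the actin difference. Of the 7 relations of *FBXO32*, 0 passed within batch 1 and 0 within batch 3, 7 within batch 2 and 6 by rho or with the actin difference. With the probe of the largest variance, *UBE2V1* in batch 1 turned to 1.03. For the genes named by rule and *UBE2V1*, 187 of the other values kept their call, 4 lost it (*FBXO32* and *RNF170* as given for sex, and *FBXO32* for batch with age) and 3 gained it (*FBXO21* for sex with the actin difference, array weights or the 4 arrays left out). The causes were not tested. No paired analysis was possible because the replicate numbers only count pigs within a sex and tie no female to a male. The promoter motif search was not run. The array background could not be redone from normalized values, and 3 genes (*FBXW5*, *USP4*, *USP36*) had a mean under 4, where signal over background limits what a difference shows.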
